A study of Mus musculus with 46 samples.

Results

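The replicative machinery of murine EPP2 pancreatic cancer cells was described through 44 genes, which were chosen by name for their roles in copying DNA and were all listed in every deposited table, out of 9857 gene symbols that stood there on 1 entry each. The cells were a single-cell-derived clone that carried doxycycline-inducible Cas9 (iCas9), and in the Ctu1 iKO cultures a pair of sgRNAs directed Cas9 to Ctu1, a subunit of the cytosolic thiouridylase that thiolates the wobble uridine (U34) of certain tRNAs. Doxycycline was given at 300 ng/ml for 4 days in the study's knockout protocol. Control cultures were labelled only as controls, and the sources did not say whether they carried sgRNAs against non-coding regions or had been kept without doxycycline. Each genotype was exposed for 2 h to 300 nM torin 1, an inhibitor of mTOR kinase, or to its solvent dimethyl sulfoxide (DMSO). This gave 6 control cultures with DMSO, 6 control cultures with torin 1, 5 Ctu1 iKO cultures with DMSO and 6 Ctu1 iKO cultures with torin 1. From each of these 23 cultures, both the ribosome-protected footprints and the poly(A) RNA were sequenced. The questions were how the footprints and transcripts of replication genes differed with mTOR inhibition, with loss of Ctu1, and with both.

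Chromosome replication starts at origins, where the origin recognition complex, Cdc6 and Cdt1 load the ring-shaped Mcm2-7 helicase onto DNA in G1. In S phase, Cdc45 and the GINS complex join the ring to form the active helicase, primase with polymerase alpha lays down primers, and polymerases delta and epsilon extend them while held on the template by the Pcna clamp. The genes of this machinery are known targets of E2F transcription factors and are expressed in proliferating cells, many of them with a peak around the entry into S phase. The mTOR kinase couples nutrient and growth factor signals to protein synthesis and cell cycle entry, and U34 thiolation by Ctu1 is known for its part in decoding AAA, GAA and CAA codons.

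Promoter sequences are shown for the 3 members whose footprints differed between groups by the main test and for Cdc6, because they allow a reader to see the motif content behind the shares given further on. The windows come from RefSeq on GRCm38.p6 and hold 250 bases before and 50 bases after an annotated start. Capitals mark 1 motif match in each. CCAAT is marked in Rrm2 (chr12:24708004-24708303, plus strand) and Chaf1a (chr17:56040166-56040465, plus strand). The E2F-type motif TTTCCCGC is marked in Pold3 (chr7:100121453-100121752, minus strand) and, on the opposite strand, in Cdc6 (chr11:98907901-98908200, plus strand). In the GENCODE annotation Cdc6 starts earlier, at 98907801, so its window and the match lie inside that gene model. Only CCAAT and the E2F-type motifs named further on were sought, so other variants of such motifs are unmarked.
Rrm2: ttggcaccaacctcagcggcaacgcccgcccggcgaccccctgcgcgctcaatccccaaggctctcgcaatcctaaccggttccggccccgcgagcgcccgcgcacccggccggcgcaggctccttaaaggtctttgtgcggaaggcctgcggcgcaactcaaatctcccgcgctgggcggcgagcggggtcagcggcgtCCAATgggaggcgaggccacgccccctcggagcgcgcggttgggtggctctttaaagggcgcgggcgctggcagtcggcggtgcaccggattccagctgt
Pold3: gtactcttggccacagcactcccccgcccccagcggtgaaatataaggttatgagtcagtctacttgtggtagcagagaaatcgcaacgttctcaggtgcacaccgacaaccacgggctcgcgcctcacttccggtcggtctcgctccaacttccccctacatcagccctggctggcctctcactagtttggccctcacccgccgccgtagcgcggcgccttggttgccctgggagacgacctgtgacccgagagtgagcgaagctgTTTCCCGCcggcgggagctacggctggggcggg
Chaf1a: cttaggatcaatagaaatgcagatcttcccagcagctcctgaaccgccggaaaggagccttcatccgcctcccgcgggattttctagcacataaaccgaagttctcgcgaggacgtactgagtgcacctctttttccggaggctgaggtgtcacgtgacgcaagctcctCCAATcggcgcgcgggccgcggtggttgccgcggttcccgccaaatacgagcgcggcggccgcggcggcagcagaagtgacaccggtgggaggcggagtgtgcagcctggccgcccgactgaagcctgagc
Cdc6: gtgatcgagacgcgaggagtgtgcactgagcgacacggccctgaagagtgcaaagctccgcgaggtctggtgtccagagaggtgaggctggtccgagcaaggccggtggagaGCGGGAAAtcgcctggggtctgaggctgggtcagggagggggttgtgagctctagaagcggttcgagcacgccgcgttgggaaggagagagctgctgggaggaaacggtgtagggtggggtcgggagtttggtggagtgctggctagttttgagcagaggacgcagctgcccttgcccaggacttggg

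A promoter window was found for 37 of the 44 members, in 43 windows. One of the E2F-type motifs TTTGGCGC, TTTCCCGC, TTTGCCGC or TTTCGCGC stood on either strand in 34.9% of the members' windows (15 windows of 15 genes), compared with 4.24% of the windows of tested genes and 2.26% of all 32851 windows. These 15 genes were Orc1, Orc3, Cdc6, Cdt1, Mcm3, Mcm5, Mcm6, Mcm7, Gins3, Pola1, Pold1, Pold3, Pole2, Rfc3 and Lig1. CCAAT was present in 58.1% of the members' windows and in 37.4% of all windows. A start with C and 4 pyrimidines, as in terminal oligopyrimidine transcripts, was seen at 0 of the 43 windows and at 2.51% of all windows. A match is a description of letters and was not tested as a site. Gins1, Gins2, Gins4, Mcm4, Pole, Prim2 and Rfc2 were not matched.

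Because Ctu1 acts on the decoding of AAA, the stretches of 30 codons with the most AAA codons (in capitals, in frame) are shown for the 2 members richest in this codon and for the poorest, from the GENCODE coding sequences on GRCm38. They are Pold3 codons 181 to 210, Rfc1 codons 67 to 96 and Cdt1 codons 224 to 253.
Pold3: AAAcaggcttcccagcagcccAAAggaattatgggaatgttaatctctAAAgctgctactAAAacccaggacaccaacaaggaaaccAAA
Rfc1: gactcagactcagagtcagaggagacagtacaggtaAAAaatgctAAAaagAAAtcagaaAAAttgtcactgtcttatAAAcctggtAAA
Cdt1: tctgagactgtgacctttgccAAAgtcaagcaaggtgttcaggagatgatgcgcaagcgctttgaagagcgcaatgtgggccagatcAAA

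These stretches held 5, 6 and 2 AAA codons. Over the whole coding sequence, AAA made up 6.51% of codons in Pold3 (30 codons), 6.37% in Rfc1 and 0.718% in Cdt1. The median was 2.71% over the 44 members and 2.19% over 9587 genes with a coding sequence, and 28 members lay above the latter value.

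The libraries held 4602092 to 52907878 footprint counts over listed genes (n = 23) and, in replicates 1 to 3, which were the ones used for transcripts, 129881946 to 293648854 RNA-seq counts (n = 12). The smallest count of any member was 4 footprints (Orc1 in replicate 1 of Ctu1 iKO with torin 1) and 568 RNA-seq counts. Ctu1 itself was listed in the DMSO tables only, with 4.54 to 4.76 RNA-seq counts per 1e+06 listed counts (CPM) in replicates 1 to 3 of control and 4.37 to 4.96 in those of Ctu1 iKO, and 1.58 to 3.43 against 1.30 to 2.28 in footprints. These ranges overlapped, whereas the later RNA-seq libraries labelled Ctu1 iKO with DMSO replicates 4 and 5, at 3.28 and 3.1 CPM, lay below all 6 control libraries with DMSO, the lowest of which (replicate 5) was at 4.22. A transcript level does not report on small frameshift edits, and the edits at Ctu1 in these cultures were not examined here. The epithelial keratins Krt8, Krt18 and Krt19 were listed, Epcam was listed in the DMSO tables only, and Cdh1, Cldn4 and Krt7 were not listed, whereas the mesenchymal genes Vim, Fn1, Cdh2 and Zeb1 were all listed. None of 5 acinar, 3 endocrine and 2 endothelial markers was listed, nor were the leukocyte genes Ptprc and Cd3e, and Cd68 was at 1.78 CPM in the DMSO tables. RNA-seq libraries of later replicates were kept out of the main test, a choice made with their values known. Those labelled Ctu1 iKO with DMSO replicates 4 and 5 correlated best, among other groups, with Ctu1 iKO with torin 1 (r = 0.992 and 0.995). Those labelled Ctu1 iKO with torin 1 replicates 5 and 6 correlated best with control DMSO replicates 5 and 6 (r = 0.995 and 0.993), and those labelled control torin 1 replicates 5 and 6 with Ctu1 iKO with DMSO replicate 3 (r = 0.993 for both). Of the 11 later libraries 9 correlated better with a library of another group than with their own group on average, as did 10 of the 12 libraries of replicates 1 to 3. Whether labels of these later libraries were exchanged could not be told from the sources used here, and values with every replicate included rest on the labels as given. With every RNA-seq replicate included, 0 members were called with torin 1 in control or in Ctu1 iKO, 5 in Ctu1 iKO with DMSO and 0 in Ctu1 iKO with torin 1, where 1.26%, 0%, 15.8% and 0% of all genes were called. In the plot of shares by library, replicates 1 and 2 stood apart from the later ones. The 44 genes together took 0.332 to 0.417% of the listed footprint counts in replicates 1 and 2 and 0.444 to 0.509% in replicates 3 to 6, without overlap. The libraries of a group also fell into sets of neighbouring numbers, 1 and 2, 3 and 4, and 5 and 6 (in Ctu1 iKO with DMSO 1 and 2, 3, and 4 and 5), which the labels do not name. The index of dispersion between a pair of libraries is 1 for counting noise alone where each fragment is counted once. It was 21.7 to 60.1 inside sets and 33.9 to 139 across sets in footprints, and 39.8 to 209 and 168 to 1113 in RNA-seq. All RNA-seq counts were even, so counting noise alone may give a value other than 1 there. The ranges inside and across sets did not overlap in 5 of the 8 groups of libraries. The tests below treat the libraries of a set as separate replicates, so p-values may be too small. With the counts of each set summed, 3 sets a group were left in footprints and 2 in transcripts. In these fits edgeR called no member in any comparison. The shares below are in the order torin 1 in control, torin 1 in Ctu1 iKO, Ctu1 iKO with DMSO and Ctu1 iKO with torin 1. Of all genes, 2.68%, 5.52%, 0.314% and 1.82% were called in footprints and 2.15%, 5.53%, 0.083% and 0% in transcripts. At an unadjusted p under 0.05, the same test gave 4, 1, 3 and 2 members in footprints. Of all genes, 12.1%, 18.9%, 10.9% and 14.7% passed at that threshold. The log2 fold changes of Rrm2, Pold3 and Chaf1a given below as called kept their sign, with adjusted p from 0.0612 to 0.193.

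**Figure D1:**
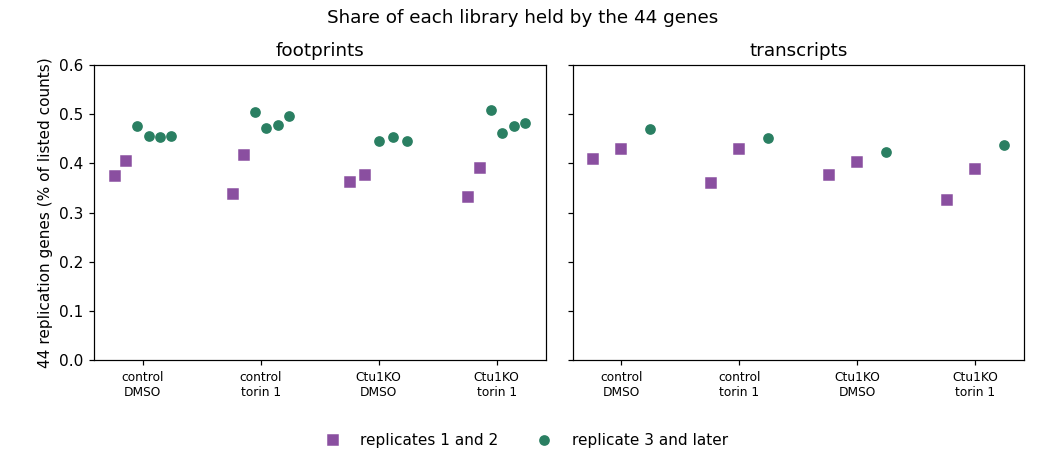
Share of the listed counts of each library, in percent, that fell on the 44 replication genes, by group, with 1 point per library for footprints and for transcripts. Footprint libraries of replicates 1 and 2 lie between 0.332 and 0.417% and those of replicates 3 to 6 between 0.444 and 0.509%, in every group.

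Levels between genes were compared per kilobase, as footprint CPM per kilobase of coding sequence in control cells with DMSO (mean ± SD, n = 6). The sliding clamp Pcna stood highest at 351.5 ± 36.7, followed by Rrm2, the regulated small subunit of ribonucleotide reductase, at 244 ± 20.4. Tyms, the thymidylate synthase, stood at 229 ± 23.5 and Orc6, the smallest origin recognition subunit, at 201 ± 8.06. Pcna and Tyms have named pseudogenes with which they could share reads. Rrm2 and Tyms did not differ beyond their spread, and Mcm7 (188 ± 23.7) and Mcm5 (165 ± 36.0) came next. The 6 Mcm2-7 subunits, which assemble into 1 ring, spanned 44.9 for Mcm2 to 188 for Mcm7. The large catalytic subunits of the replicative polymerases were near the bottom of the order, with Pole at 9.95 and Pola1 at 9.04, above Gins3 at 8.0. Orc1, the origin recognition subunit whose level is known to change over the cell cycle, was lowest at 2.94 ± 0.552. On the scale of transcript CPM per kilobase of transcript (n = 3), the order began with Mcm5 (119 ± 19.9), Mcm7 (119 ± 8.76), Mcm6 (114 ± 4.72) and Pcna (109.6 ± 8.42), whose values overlapped, and ended with Orc1 (3.23 ± 0.711) and Gins3 (2.69 ± 0.00533).

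**Figure D2:**
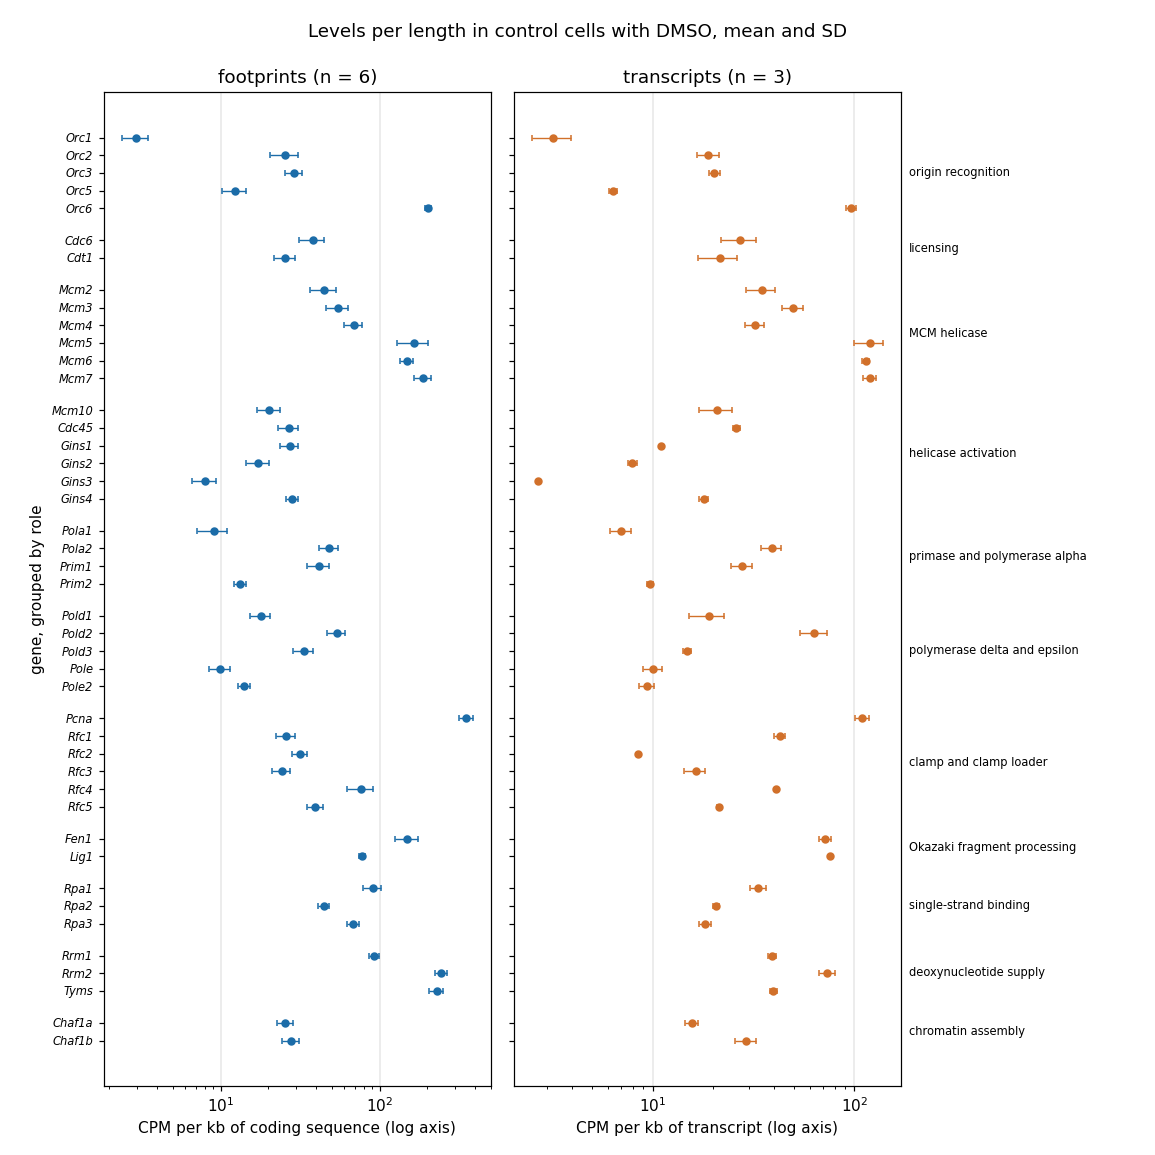
Level of each of the 44 genes in control cells with DMSO, as CPM per kilobase on a log axis, for footprints (per kilobase of coding sequence, n = 6) and transcripts (per kilobase of transcript, n = 3). Points are means and bars SD, with Pcna highest in footprints at 351.5 and Orc1 lowest at 2.94.

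To ask how mTOR inhibition alone altered the machinery, control cells with torin 1 were compared with control cells with DMSO. Footprints on Rrm2 fell, and those on the other 43 members did not pass the test, which called 6.91% of all 9857 genes at an adjusted p-value under 0.05 (edgeR's quasi-likelihood test, Benjamini-Hochberg adjustment, two-sided) against 1 of 44 members. Transcripts gave 0 called members, where 11.8% of 9616 genes were called. In the same test 2 members, Fen1 and Gins3, had an unadjusted p under 0.05 (24.6% of all genes). DESeq2 called 2 members (17.1% of all genes). The median log2 fold change (log2FC) of the members was -0.02 in footprints and -0.04 in transcripts, beside 0.02 and 0.00 over all genes tested. Scaling to library totals, which moved the median of all genes to 0.10 in footprints, turned the members' footprint median to 0.07.

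Rrm2 (chr12:24708241-24714146, plus strand, in the GENCODE annotation of GRCm38) supplies deoxynucleotides as the limiting partner of Rrm1. Its footprint level, in CPM with TMM scaling, ranged from 244 over a median of 290 to 310 in control with DMSO and from 156 over 215 to 238 with torin 1. The groups did not overlap, and in each of the 6 numbered pairs the torin 1 library was the lower one. The log2FC was -0.46 (SE 0.118, adjusted p = 0.0147), and it was -0.54 within replicates 1 and 2 (adjusted p = 0.417) and -0.43 within replicates 3 to 6 (adjusted p = 0.00284). Scaled to library totals it was -0.37 and no longer passed. Rrm2 transcripts, at 146, 162 and 174 CPM with DMSO and 128, 152 and 154 with torin 1, overlapped (log2FC -0.16, adjusted p = 0.484). The partner subunit Rrm1 had footprint levels of 192 to 233 (median 225) with DMSO and 128 to 245 (median 224) with torin 1, where replicate 1 was the low library. Tyms, which makes thymidylate, had 187 to 245 (median 206) and 200 to 229 (median 207), a log2FC of 0.01 (95% interval -0.15 to 0.16).

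Among the factors that mark and license origins, the log2FC of footprints was negative for 4 of 5 origin recognition members, from -0.49 for Orc1 to 0.06 for Orc5, and none passed the test. Orc1 footprints ranged from 5.10 to 8.73 CPM (median 7.90) with DMSO and from 2.44 to 6.95 (median 5.75) with torin 1. The groups overlapped, and counts were few. Cdc6, an ATPase that takes part in helicase loading, had footprint levels of 45.6 to 79.0 (median 69.4) with DMSO. With torin 1 they were 16.6 to 69.2 (median 61.8), with replicate 1 far below the other 5 torin 1 libraries. Its transcripts stood at 57.3, 67.6 and 84.2 CPM with DMSO and at 31.8, 48.6 and 64.5 with torin 1, lower in each numbered pair, with a log2FC of -0.53 (SE 0.26, adjusted p = 0.252). Cdt1, its partner in loading, differed in sign, with transcripts at 39.6, 42.9 and 58.7 CPM against 52.2, 55.8 and 64.8 (log2FC 0.29, adjusted p = 0.277), while its footprints ranged over 34.1 to 50.5 and 35.5 to 49.4. Cdt1 lies over its whole length of 5540 bases within the gene model Gm20388 on the same strand. In bulk cultures, a smaller share of cells that express a gene and less RNA per cell cannot be told apart.

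The 6 helicase subunits had footprint log2FC from -0.20 (Mcm2) to 0.06 (Mcm6), and none passed the test. Mcm2 footprints ranged from 97.5 to 156 CPM (median 113) with DMSO and from 66.0 to 129 (median 106) with torin 1, and those of Mcm4 from 141 to 202 (median 184) and from 87.8 to 217 (median 202). In both, the lowest library was replicate 1 with torin 1. Among the genes that turn the ring into a moving helicase, Cdc45 footprints ranged from 34.6 to 53.5 (median 46.9) and from 26.2 to 76.7 (median 55.4), a log2FC of 0.24 (95% interval -0.15 to 0.62). Gins1 footprints lay at 12.7 to 18.1 (median 16.9) and 13.2 to 19.9 (median 16.5). Gins4 footprints, at 17.2 to 20.7 (median 18.8) with DMSO and 19.96 to 28.6 (median 23.0) with torin 1, just overlapped (log2FC 0.31, adjusted p = 0.0523). Transcripts of Gins3, another GINS subunit, did not overlap, at 6.77 to 6.80 CPM with DMSO and 4.66 to 5.07 with torin 1, with a log2FC of -0.48 and an adjusted p of 0.073.

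At the fork, the 4 members of primase and polymerase alpha had footprint log2FC between 0.04 and 0.15, and the 5 of polymerases delta and epsilon between -0.01 and 0.15. Pola1, the catalytic subunit that extends RNA primers, had footprints of 26.2 to 50.3 CPM (median 42.2) with DMSO and 20.2 to 51.4 (median 45.7) with torin 1. Pole, the leading-strand polymerase, had 49.99 to 77.98 (median 69.3) and 45.8 to 82.1 (median 76.0). For the clamp, Pcna footprints ranged from 228 to 305 (median 282) and from 241 to 343 (median 311), log2FC 0.13 (95% interval -0.09 to 0.36), and for the large clamp loader subunit Rfc1 from 66.5 to 102 (median 89.9) and from 59.2 to 94.5 (median 91.5). Fen1, the nuclease that trims Okazaki fragments, had transcripts of 158, 165 and 181 CPM with DMSO and 107, 124 and 142 with torin 1. These did not overlap (log2FC -0.43, SE 0.15, adjusted p = 0.0829), and its footprints ranged from 134 to 209 (median 171) and from 86 to 180 (median 142). Of the single-strand binding trimer RPA, Rpa1 footprints lay at 139 to 195 (median 172) and 106 to 201 (median 176), and those of the small subunit Rpa3 at 21.7 to 26.7 (median 25.1) and 24.5 to 38.6 (median 31.4), log2FC 0.39 (SE 0.12, adjusted p = 0.0526). Chaf1a, the large subunit of the chromatin assembly factor that deposits histones behind the fork, had footprints of 61.0 to 82.4 (median 69.6) and 52.5 to 68.2 (median 55.4), log2FC -0.27 (adjusted p = 0.102).

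Same-numbered control libraries deviated together, so the fit with a term for replicate number is given beside these counts. With it, 6 members (13.6%) were called in footprints, against 13.9% of all genes (7.66% lower and 6.29% higher), 4 of them lower and 2 higher. Those of Rrm2 (log2FC -0.47, adjusted p = 3.76e-05), Fen1 (-0.31, 0.0211), Chaf1a (-0.27, 0.0312) and Orc6 (-0.22, 0.0339) fell and those of Rpa3 (0.38, 0.0326) and Gins4 (0.31, 0.0479) rose. In transcripts, 10 members (22.7%) were called, against 32.3% of all genes (17.6% lower and 14.7% higher), 8 of them lower and 2 higher. Transcripts of Cdc6 (-0.56, 0.00201), Gins3 (-0.49, 0.00763), Fen1 (-0.44, 0.000467), Orc2 (-0.43, 0.0013), Orc1 (-0.39, 0.0385), Rpa2 (-0.25, 0.0104), Orc6 (-0.19, 0.0224) and Rrm2 (-0.16, 0.0404) fell, and those of Cdt1 (0.30, 0.00283) and Pole (0.22, 0.0153) rose. Of these, Orc1, Orc2 and Orc6 are origin recognition members and Cdc6 and Cdt1 the licensing pair. Without the replicate term 0 transcripts of members were called here (11.8% of all genes), and 0 with libraries summed over sets (2.15%).

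**Figure D3:**
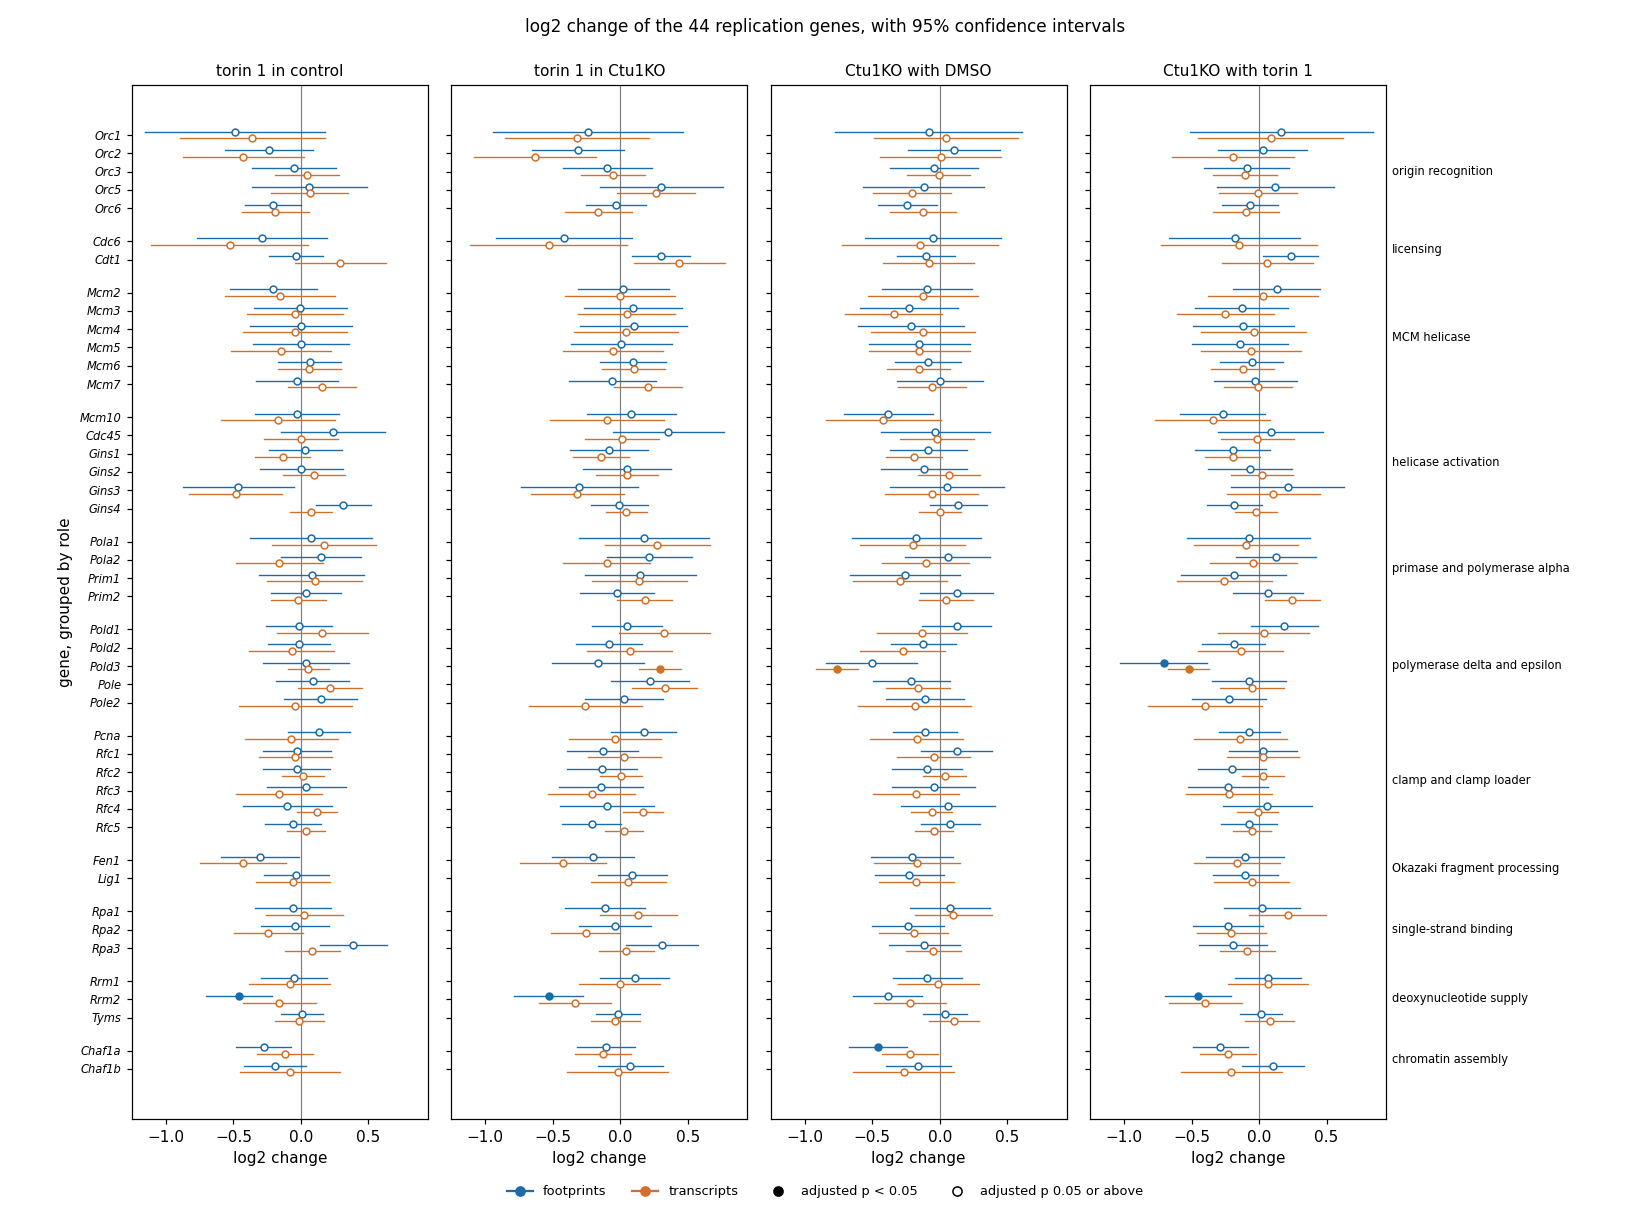
Log2 fold change of the 44 genes, ordered by role, in each of 4 comparisons, for footprints (blue) and transcripts (orange), without a replicate term. Points are estimates, bars 95% intervals, and filled points passed an adjusted p of 0.05, which in footprints were Rrm2 in 3 comparisons, Pold3 in 1 and Chaf1a in 1.

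In Ctu1 iKO cells, torin 1 was compared with DMSO in the same way. Footprints on Rrm2 fell again, the 1 member of 44 called where 12% of all genes were, and in transcripts Pold3 rose as the 1 member called where 17.9% of all genes were. The members' median log2FC was -0.01 in footprints and 0.01 in transcripts, beside 0.03 and 0.02 over all genes. Scaled to library totals, the footprint median of the members turned to 0.08 and their transcript median to -0.06.

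Rrm2 footprints stood at 158, 207, 221, 263 and 244 CPM in Ctu1 iKO with DMSO and ranged from 120 over a median of 155 to 174 with torin 1. One DMSO library, replicate 1, lay within the torin 1 range, and the log2FC was -0.53 (SE 0.124, adjusted p = 0.00492). It was -0.52 within replicates 1 and 2 (adjusted p = 0.234) and -0.57 within replicates 3 to 6 (adjusted p = 0.000257). Without the cultures labelled Ctu1 iKO with DMSO replicates 4 and 5 it was -0.37 and no longer passed (adjusted p = 0.0941). The control and Ctu1 iKO values share no libraries between them, and the difference between the 2 torin 1 effects on Rrm2 footprints was -0.07 (95% interval -0.42 to 0.29). Transcripts of Rrm2 stood at 127, 141 and 148 CPM with DMSO and at 90.4, 114 and 124 with torin 1, without overlap, with a log2FC of -0.34 (adjusted p = 0.0797).

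Pold3 (chr7:100082111-100121565, minus strand), an accessory subunit of the lagging-strand polymerase delta, had transcripts of 25.5, 28.4 and 26.8 CPM in Ctu1 iKO with DMSO and 33.8, 31.4 and 33.7 with torin 1. All 3 torin 1 libraries were above all 3 DMSO libraries (log2FC 0.29, SE 0.0698, adjusted p = 0.0137). The call was lost without Ctu1 iKO DMSO replicate 1, under scaling to library totals, in a fit of these 2 groups alone and with every RNA-seq replicate included (log2FC 0.34, adjusted p = 0.807). Pold3 footprints did not share this sign, at 23.5, 36.1, 40.0, 28.6 and 34.7 with DMSO and 22.4 to 32.2 (median 30.2) with torin 1, log2FC -0.17 (95% interval -0.50 to 0.17).

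Of the licensing pair, Cdt1 footprints stood at 36.8, 41.7, 43.5, 37.0 and 39.9 CPM with DMSO and ranged from 46.4 to 52.2 (median 48.7) with torin 1, without overlap, log2FC 0.30 (SE 0.10, adjusted p = 0.0613). Its transcripts, at 40.8, 43.2 and 49.4 against 52.1, 59.3 and 68.9 CPM, did not overlap either (log2FC 0.43, adjusted p = 0.0746). Cdc6 lay the other way, with transcripts of 54.9, 66.8 and 67.3 CPM against 29.5, 45.4 and 55.9 (log2FC -0.53, adjusted p = 0.201) and footprints of 60.1, 69.1, 67.7, 65.0 and 62.8 against 25.4 to 62.7 (median 51.1). Orc2, an origin recognition subunit, had transcripts of 61.4, 58.0 and 83.8 CPM with DMSO and 34.9, 37.8 and 58.5 with torin 1 (log2FC -0.63, adjusted p = 0.0553), and Orc2 overlaps Nif3l1 on the opposite strand. Transcripts of Pole (61.4, 68.5 and 62 against 72.1, 83.8 and 85.0 CPM) differed by 0.33 (adjusted p = 0.0587), those of Fen1 (139, 143 and 166 against 88.4, 113 and 133 CPM) by -0.42 (adjusted p = 0.0675), and neither pair of groups overlapped. Footprints of Cdc45 stood at 44.9, 35.1, 49.7, 49.0 and 43.6 CPM with DMSO and at 38.7 to 72.2 (median 62) with torin 1, where replicates 1 and 2 were low, log2FC 0.35 (adjusted p = 0.273).

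With the replicate term, 18 members (40.9%) were called in transcripts, against 41% of all genes (20.3% lower and 20.7% higher), 9 in each direction. The lower ones were led by Orc2 (log2FC -0.65, adjusted p = 5.31e-05), Cdc6 (-0.58, 0.00125), Fen1 (-0.44, 0.00035) and Rrm2 (-0.35, 0.000351), followed by Gins3, Pole2, Rpa2, Rfc3 and Orc6 at -0.33 to -0.17. The higher ones were led by Cdt1 (0.43, 0.0002), Pold1 (0.33, 0.00193), Pole (0.32, 0.00101) and Pold3 (0.30, 0.00254), followed by Orc5, Pola1, Mcm7, Prim2 and Rfc4 at 0.25 to 0.17. Of the 4 primase and polymerase alpha members, Pola1 and Prim2 were called higher, and of the 5 of polymerases delta and epsilon, Pold1, Pold3 and Pole were called higher and Pole2 lower. The plot of transcript changes with the replicate term shows both directions side by side.

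**Figure D4:**
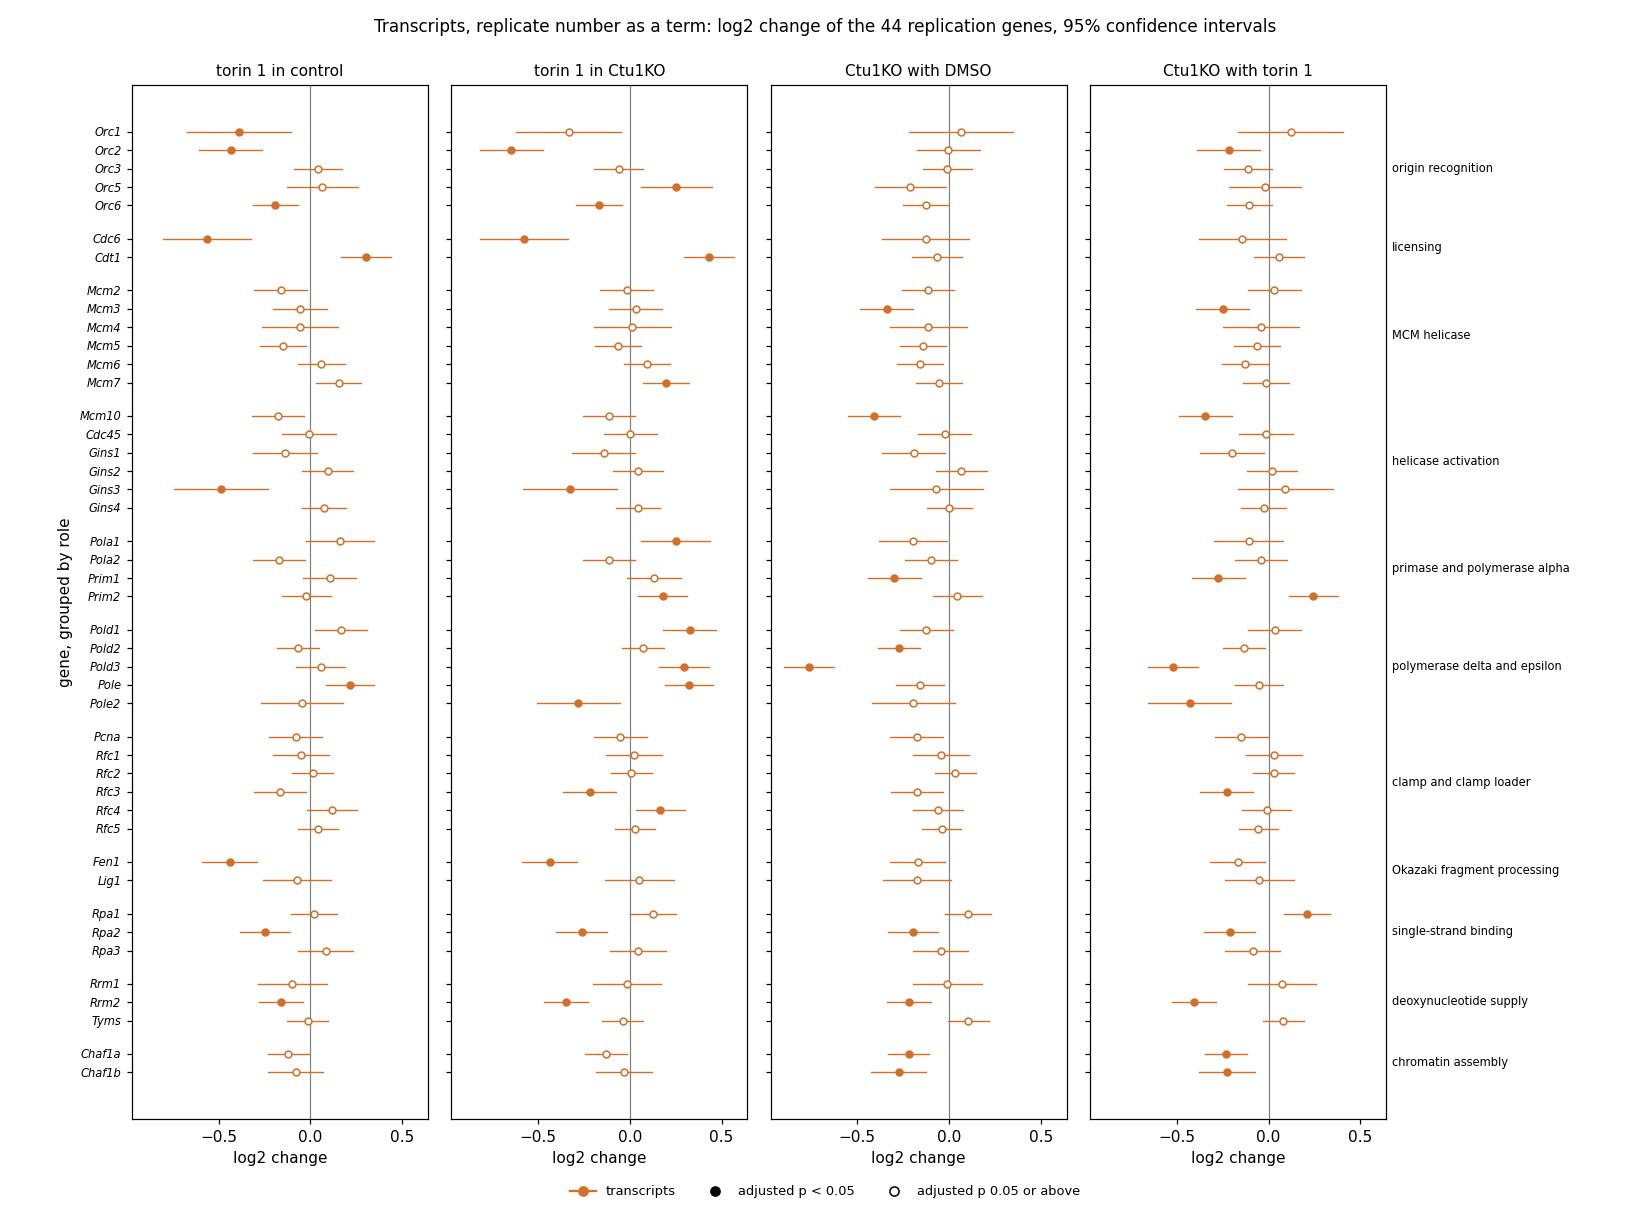
Log2 fold change of the transcripts of the 44 genes in 4 comparisons from the fit with a term for replicate number (replicates 1 to 3), with 95% intervals and filled points for adjusted p under 0.05. With torin 1, 10 members in control and 18 in Ctu1 iKO passed the test in both directions, whereas all 9 members that passed in Ctu1 iKO with DMSO were lower.

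Loss of Ctu1 without mTOR inhibition was examined by comparing Ctu1 iKO with control, both with DMSO. Footprints on Chaf1a fell, as the 1 member called in a comparison that called 2.76% of all genes, and transcripts of Pold3 fell, as the 1 member called beside 6.28% of all genes. The log2FC was positive for 12 of 44 members in footprints (49.4% of all genes) and for 8 of 44 in transcripts (45.6%), with medians of -0.10 and -0.13 against -0.00 and -0.02 over all genes. Both medians kept their sign under library totals and with the replicate term.

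Chaf1a (chr17:56040439-56072289, plus strand) had footprints that ranged from 61.0 over a median of 69.6 to 82.4 CPM in control and stood at 45.2, 59.1, 53.2, 45.9 and 50.8 in Ctu1 iKO. The groups did not overlap, and the log2FC was -0.46 (SE 0.104, adjusted p = 0.0149), with -0.50 within replicates 1 and 2 and -0.44 within replicates 3 to 6, neither of which passed the test (adjusted p = 0.72 and 0.0544). The call was lost without Ctu1 iKO DMSO replicate 1, and also without the cultures labelled Ctu1 iKO with DMSO replicates 4 and 5 (log2FC -0.41, adjusted p = 0.0972), where Rrm2 was the 1 member called instead (-0.55, adjusted p = 0.0401). Chaf1a transcripts, at 79.7, 86.3 and 93.1 CPM in control and 70.4, 74.0 and 77.6 in Ctu1 iKO, had a log2FC of -0.22 (adjusted p = 0.193). Chaf1a overlaps Ubxn6 on the opposite strand by 5245 bases, and whether the footprint counting used strand was not given in the sources used here. Its partner subunit Chaf1b had a log2FC of -0.16 in footprints and -0.27 in transcripts.

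Pold3 transcripts stood at 46.9, 46.6 and 43.3 CPM in control and 25.5, 28.4 and 26.8 in Ctu1 iKO. Every Ctu1 iKO library was far below every control library, and this was the largest log2FC of any member in the 4 comparisons of footprints and of transcripts (log2FC -0.76, SE 0.0701, adjusted p = 0.000833). Its footprints ranged from 36.8 to 57.1 CPM (median 46.9) in control against 23.5, 36.1, 40.0, 28.6 and 34.7, log2FC -0.51 (SE 0.163, adjusted p = 0.0978). The other delta and epsilon subunits had footprint log2FC from -0.21 (Pole) to 0.13 (Pold1) and transcript log2FC from -0.27 (Pold2) to -0.13 (Pold1).

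**Figure D5:**
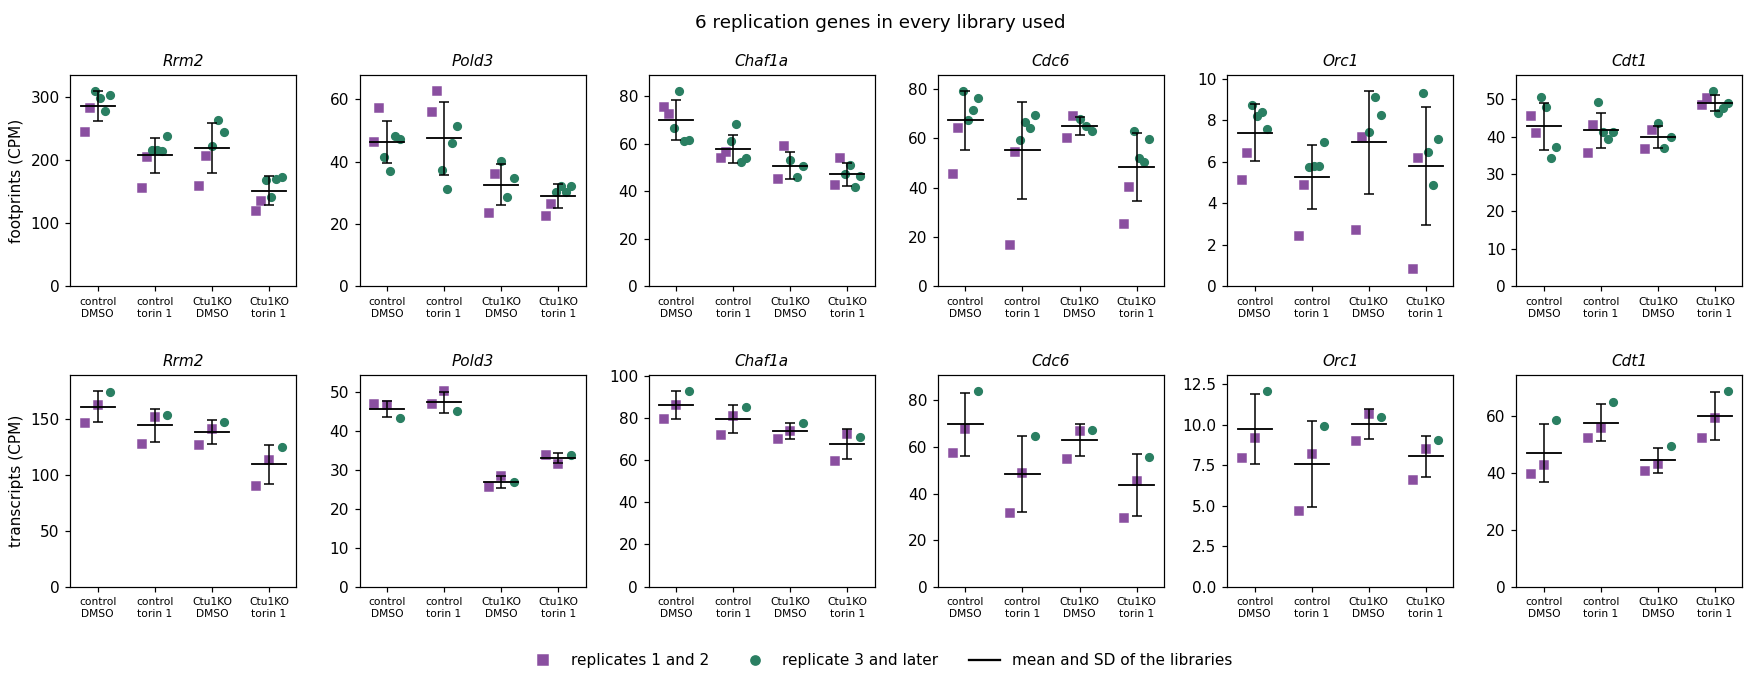
CPM (TMM scaling) of Rrm2, Pold3, Chaf1a, Cdc6, Orc1 and Cdt1 in each library, footprints above and transcripts of replicates 1 to 3 below, by group, with the mean and SD. Squares are replicates 1 and 2 and circles later replicates, and Pold3 transcripts lie between 25.5 and 33.8 in Ctu1 iKO and between 43.3 and 50.3 in control, with no overlap.

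For the remaining roles no member passed the test, and the values were as follows. Rrm2 footprints, at 244 to 310 CPM (median 290) in control and 158, 207, 221, 263 and 244 in Ctu1 iKO, overlapped, with the Ctu1 iKO libraries at 263 and 244 in the control range (log2FC -0.38, SE 0.124, adjusted p = 0.0978). Mcm10, which binds the helicase at initiation, had footprints of 38.6 to 63.4 (median 53.8) against 34.0, 35.1, 43.9, 46.2 and 47.5 (log2FC -0.38, adjusted p = 0.229). Its transcripts stood at 59.7, 71.6 and 86.7 CPM against 46.6, 58.1 and 58.4, without overlap (log2FC -0.42, SE 0.19, adjusted p = 0.231). All 6 Mcm2-7 transcripts had a negative log2FC, from -0.34 (Mcm3) to -0.06 (Mcm7), and 5 of 6 did in footprints. Mcm4 transcripts, at 104, 115 and 128 CPM in control and 102, 107 and 108 in Ctu1 iKO, overlapped, as did those of Mcm2 at 101, 111 and 139 against 96.5, 105 and 121. Gins1 transcripts, at 11.9 to 12.1 against 10.3 to 10.7 CPM, did not overlap (log2FC -0.19, adjusted p = 0.258). The deoxynucleotide gene Tyms, at 122, 123 and 131 against 126, 140 and 139 CPM, and the RPA subunit Rpa1, at 156, 165 and 186 against 167, 182 and 194 CPM, were among the 8 members with a positive transcript log2FC (0.11 and 0.10). Footprints of the AAA-rich Rfc1 ranged from 66.5 to 102 CPM in control against 86.3, 104, 81.0, 103 and 104, with a log2FC of 0.13 (95% interval -0.14 to 0.39).

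With the replicate term, 9 members (20.5%) were called in transcripts, against 29.2% of all genes, and all 9 were lower, where 16.1% of all genes were called lower. They were Pold3 (log2FC -0.76, adjusted p = 2.24e-05), Mcm10 (-0.41, 0.000956), Mcm3 (-0.34, 0.00311), the primase subunit Prim1 (-0.30, 0.00606), Chaf1b (-0.27, 0.0114), Pold2 (-0.27, 0.00285), Chaf1a (-0.22, 0.00845), Rrm2 (-0.22, 0.0113) and Rpa2 (-0.20, 0.035).

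Under torin 1, Ctu1 iKO was again compared with control. Footprints on Pold3 and Rrm2 fell, 2 of 44 members in a comparison that called 8.54% of all genes, and transcripts of Pold3 fell as the 1 member called beside 10.1% of all genes. The log2FC was positive for 16 members in footprints (51.9% of all genes) and for 12 in transcripts (49.3%), with medians of -0.08 and -0.06 against 0.01 and -0.00 over all genes. The transcript median was -0.19 without Ctu1 iKO torin 1 replicate 3, -0.18 without control torin 1 replicate 1 and 0.01 without Ctu1 iKO torin 1 replicate 1.

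Pold3 footprints ranged from 31.3 over a median of 48.7 to 62.7 CPM in control with torin 1 and from 22.4 over 30.2 to 32.2 in Ctu1 iKO with torin 1. Only control replicate 4 lay within the Ctu1 iKO range, and the log2FC was -0.71 (SE 0.156, adjusted p = 0.00487). The size differed between the early and later cultures, at -1.29 within replicates 1 and 2 and -0.42 within replicates 3 to 6, neither of which passed the test. Pold3 transcripts stood at 46.8, 50.3 and 45.0 CPM in control and 33.8, 31.4 and 33.7 in Ctu1 iKO, without overlap, log2FC -0.52 (SE 0.0699, adjusted p = 0.00194). With every RNA-seq replicate included this was -0.16 (adjusted p = 0.83), where the libraries labelled Ctu1 iKO with torin 1 replicates 5 and 6 stood at 51.1 and 50.9 and those labelled control with torin 1 replicates 5 and 6 at 37.0 and 34.0 CPM of listed counts. The same inclusion left Pold3 transcripts in Ctu1 iKO with DMSO at -0.63 (adjusted p = 0.0108).

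Rrm2 footprints ranged from 156 over 215 to 238 CPM in control and from 120 over 155 to 174 in Ctu1 iKO. The low control library was again replicate 1, and the log2FC was -0.45 (SE 0.119, adjusted p = 0.0175), with -0.51 within replicates 1 and 2 (adjusted p = 0.285) and -0.44 within replicates 3 to 6 (adjusted p = 0.00269). Rrm2 transcripts, at 128, 152 and 154 against 90.4, 114 and 124 CPM, did not overlap (log2FC -0.40, SE 0.12, adjusted p = 0.0626). Across the 4 groups, the lowest median Rrm2 level in both assays was that of Ctu1 iKO cells with torin 1.

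Other roles did not pass the test here. Chaf1a footprints ranged from 52.5 to 68.2 CPM (median 55.4) against 42 to 54.2 (median 46.8), log2FC -0.29 (adjusted p = 0.0724). Cdt1 footprints ranged from 35.5 to 49.4 (median 41.2) against 46.4 to 52.2 (median 48.7), log2FC 0.23 (adjusted p = 0.152). Rpa3 footprints, at 24.5 to 38.6 (median 31.4) against 23.6 to 33.6 (median 26.9), and Orc1 footprints, at 2.44 to 6.95 (median 5.75) against 0.846 to 9.29 (median 6.33), overlapped widely. The transcript log2FC of Pole2, the second subunit of polymerase epsilon, was -0.40, and Pole2 overlaps the gene model Gm49384 on the same strand.

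With the replicate term, 3 members (6.82%) were called in footprints, against 17.4% of all genes, and all were lower (8.79% of all genes), namely Pold3 (log2FC -0.68, adjusted p = 0.00242), Rrm2 (-0.45, 7.32e-05) and Chaf1a (-0.29, 0.0219). In transcripts 13 members (29.5%) were called, against 35.9% of all genes (18.2% lower and 17.7% higher), 11 of them lower and 2 higher. Those of Pold3 (-0.52, 0.000136), Pole2 (-0.43, 0.00757), Rrm2 (-0.40, 0.000267), Mcm10 (-0.34, 0.00205), Prim1 (-0.27, 0.00746), Mcm3 (-0.25, 0.012), Chaf1a (-0.23, 0.00515), Rfc3 (-0.23, 0.0172), Chaf1b (-0.23, 0.0228), Orc2 (-0.22, 0.049) and Rpa2 (-0.21, 0.0219) fell. Transcripts of Prim2 (0.24, 0.00902), the large primase subunit, and Rpa1 (0.21, 0.0145) rose. The Ctu1 iKO comparisons with DMSO and with torin 1 share no libraries.

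Whether torin 1 acted differently in Ctu1 iKO than in control was tested as the difference of the 2 torin 1 effects. No member was called in footprints, where 0.639% of all genes were, or in transcripts, where 0% were. At an unadjusted p under 0.05, edgeR gave 2 members in footprints (Cdt1 at 0.34 and Gins4 at -0.32, 4.67% of all genes). It gave 1 in transcripts (Pold3 at 0.24, 1.46% of all genes). DESeq2 called 0 members in both, where it called 1.09% of all genes in footprints and 0.0312% in transcripts. For Cdt1, footprints with torin 1 differed from those with DMSO by -0.04 in control and 0.30 in Ctu1 iKO, and for Gins4 by 0.31 and -0.01. The interval of this difference was wide for most members, for example -0.29 to 0.37 for Pcna and -0.83 to 0.57 for Cdc6 footprints.

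Translational efficiency, the change in footprints beyond that in transcripts of the same cultures, was tested in 1 model of both assays over replicates 1 to 3. No member was called in any of the 4 comparisons by edgeR or DESeq2. Of 9615 genes edgeR called 1.2% for torin 1 in control, 2.58% for torin 1 in Ctu1 iKO, 0.0104% for Ctu1 iKO with DMSO and 0.686% for Ctu1 iKO with torin 1. DESeq2 called 1.63%, 4.49%, 0.0832% and 1.57% in this order. At an unadjusted p under 0.05 there were 1, 1, 0 and 1 members in these comparisons (all genes 4.7%, 12%, 2.49% and 6.48%), namely Rpa3 (0.39, 95% interval 0.03 to 0.76), Pold3 (-0.61, -1.15 to -0.08) and Rpa3 again (-0.38, -0.75 to -0.01). Rrm2 had an efficiency log2FC of -0.38 (-0.84 to 0.09) with torin 1 in control and -0.12 (-0.58 to 0.34) in Ctu1 iKO. With the replicate term, Rrm2 with torin 1 in control was called (-0.38, SE 0.0953, adjusted p = 0.0455), as 1 of 44 members (all genes 2%), and no member in the other 3 comparisons (6.45%, 0.0416% and 2.42%). With a term for each culture in its place, the same Rrm2 value had an adjusted p of 0.187. No member was called in that fit in any of the 4 comparisons (all genes 1.31%, 3.74%, 0.0208% and 0.77%). The median efficiency log2FC of the members lay between -0.04 and 0.02 in the 4 comparisons, and the 95% intervals reached a median of 0.53 to either side.

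Further genes of replication were taken from a list of 42, all of which were tested. In footprints, where 6.91%, 12%, 2.76% and 8.54% of all genes were called in the 4 comparisons in the order above, Chtf8, a subunit of an alternative clamp loader, rose with torin 1 in Ctu1 iKO (log2FC 0.36) and Gmnn, the inhibitor of Cdt1, fell in Ctu1 iKO with torin 1 (-0.36), while 0 were called in the other 2 comparisons. The replicate term changed these counts of higher and lower footprints to 2 and 3 with torin 1 in control, where 13.9% of all genes were called. It gave 1 and 5 in Ctu1 iKO with torin 1, where 17.4% of all genes were called. With torin 1 in Ctu1 iKO it gave 1 and 1 (21.3% of all genes), and in Ctu1 iKO with DMSO 0 and 1 (9.72%). In transcripts, where 11.8%, 17.9%, 6.28% and 10.1% of all genes were called, 1 fell with torin 1 in control (Atad5, which unloads Pcna, -0.52), 5 fell with torin 1 in Ctu1 iKO (Atad5 at -0.64, Dbf4, Mtbp, Pole4 and Rad17), 2 fell in Ctu1 iKO with DMSO (the RNase H2 subunits Rnaseh2a at -0.40 and Rnaseh2c at -0.33) and 6 fell in Ctu1 iKO with torin 1 (Rnaseh2a at -0.41, Rnaseh2c at -0.36, Asf1a, Mtbp, Tipin and Topbp1), and none rose. With the replicate term the transcripts called higher and lower were 2 and 9, 4 and 13, 0 and 13, and 0 and 18 of the 42, where 32.3%, 41%, 29.2% and 35.9% of all genes were called. Of 13 E2F and pocket protein genes, 12 were tested. In footprints 1 fell in each of 3 comparisons, namely E2f4 with torin 1 in control (-0.46), E2f5 with torin 1 in Ctu1 iKO (-0.57) and E2f3 in Ctu1 iKO with torin 1 (-0.50). Under the replicate term 1 was higher and 1 lower with torin 1 in control (13.9% of all genes called). There were 0 and 1 in Ctu1 iKO with torin 1 (17.4%), 1 and 2 with torin 1 in Ctu1 iKO (21.3%) and 0 and 0 in Ctu1 iKO with DMSO (9.72%). In transcripts, E2f6 fell with torin 1 in control (-0.30), and with torin 1 in Ctu1 iKO E2f3 (-0.30), E2f5 (-0.58) and E2f6 (-0.43) fell while the repressor E2f7 rose (0.33). Transcripts of Rbl2, a pocket protein, fell with Ctu1 loss both with DMSO (-0.35) and with torin 1 (-0.36). The transcripts called higher and lower with the replicate term were 4 and 4, 2 and 5, 0 and 3, and 0 and 6 of the 12, beside the same shares of all genes.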

How the data were processed

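Ribosome footprints and poly(A) RNA from the same 23 cultures were available as raw counts per gene, deposited without normalization. Per the authors' methods, footprint reads were trimmed with cutadapt 3.4, and UMI-tools 1.1.1 extracted their molecular identifiers. The reads were then cleared of rRNA and counted with STAR 2.5.3a. Whether duplicates were collapsed was not given in the sources used here. The labels name the mouse build GRCm38, the methods a human build, and the symbols are those of mouse. RNA-seq libraries were stranded and paired-end, and all their counts were even. Separate tables for DMSO and torin 1 held 10420 and 9936 entries, with a lowest maximum footprint count of 100 in each, so low genes had been removed before deposit. The 11 symbols on more than 1 entry were left out.

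Counts were fitted with edgeR 4.0.16 in R 4.3.3 (TMM, quasi-likelihood test, mean of at least 10 counts, all 4 groups in 1 model), with Benjamini-Hochberg adjustment over all genes tested and calls at 0.05. All 44 members passed this filter in each main fit. Alternatives used DESeq2 1.42.0, other scalings and filters, a term for replicate number, a term for replicates 1 and 2 against the later ones (a split that is not in the labels and was taken because these libraries stood apart), left-out libraries and, added after the data were seen, counts summed over sets of libraries. The fits were also run on simulated counts that were drawn independently for each library. These held no sets of neighbouring libraries, so they cannot show whether such sets make p-values too small. The members and gene lists, and the use of RNA-seq replicates 1 to 3, were chosen with earlier results of these data known. The genes given in full were 20 members picked by role, and up to 6 members per direction among those called. Gins3, Gins4 and Orc2 were added after their values were seen. Motifs and codons were read from RefSeq promoter windows and GENCODE coding sequences. Scripts used Python 3.11.15, pandas 2.3.3 and matplotlib 3.10.9.

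The replicate numbers come from the labels. Deviations from the group means correlated between same-numbered libraries at 0.486 to 0.836 in transcripts over all 4 pairs of groups, at 0.424 to 0.638 in footprints for torin 1 in control and at 0.315 to 0.536 for Ctu1 iKO with torin 1, so a replicate term was used beside the main test there. No pair of libraries was a duplicate. The methods name 2 independent replicates, and the legends 2 for RNA-seq and 5 or 6 for footprints, so p-values measure only the spread between these libraries, which may in part be technical, and may be too small where libraries fall into sets.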

Additional observations from a re-analysis of the deposited data

Results flagged for a closer look

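In 84 checks of footprint groups of 5 or 6 libraries, which covered the 20 members given in full and the summed share of all 44, a single library lay far from the others 5 times; chance alone flags about 1 in 20 groups. In replicate 1 of control with torin 1, Cdc6 stood at 16.6 CPM (others 54.4 to 69.2), Pole at 45.8 (others 73.6 to 82.1), Rfc1 at 59.2 (others 83.5 to 94.5) and Rrm1 at 128 (others 205.8 to 245.3). The fifth was Pole in replicate 2 of Ctu1 iKO with torin 1, at 54.0 CPM (others 69.1 to 76.1).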

How the results depend on the processing

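No called value changed sign, but medians near 0 did. Those for torin 1 in control and in Ctu1 iKO had the other sign under 4 and 8 of 35 alternatives in footprints, 2 and 9 of 22 in transcripts and 4 and 3 of 22 in efficiency, those of the interaction under 4 of 34 in footprints and 4 of 21 in transcripts, and those of efficiency in Ctu1 iKO under 5 of 22 with DMSO and 4 of 22 with torin 1 (-0.06 with every replicate in the latter). In footprints with torin 1 in Ctu1 iKO the median was 0.04 without the cultures labelled Ctu1 iKO with DMSO replicates 4 and 5 and 0.01 within replicates 3 to 6. With library totals it was 0.11 and 0.12 in efficiency for torin 1 in control and in Ctu1 iKO. The medians of Ctu1 iKO against control kept their sign under all 35 alternatives in footprints with DMSO and with torin 1, under all 22 in transcripts with DMSO and in all but 1 of 22 in transcripts with torin 1. The early-late term is that for replicates 1 and 2 against later ones. Counts of members called follow, each with the share of all genes called in that fit. In footprints, torin 1 in control gave 1 (lower), and 3 with DESeq2 (9.21%) and 3 with the early-late term (11.5%), 2 of them higher (Gins4 and Rpa3), 2 with library totals (8.58%, both higher, Gins4 and Rpa3, without Rrm2), 6 with the replicate term (13.9%, 2 higher) and 0 within replicates 1 and 2 (1.22%) or 1 to 3 (1.53%). Torin 1 in Ctu1 iKO gave 1 (lower), and 2 with DESeq2 (14.8%, 1 higher), 3 with the early-late term (18.3%, 1 higher), 3 with library totals (14.9%, 2 higher), 5 with the replicate term (21.3%, 2 higher), 3 within replicates 3 to 6 (11.5%, 2 higher), and 0 within replicates 1 and 2 (2.41%), 1 to 3 (3.65%) or without the cultures labelled Ctu1 iKO with DMSO replicates 4 and 5 (9.83%). Ctu1 iKO with DMSO gave 1, and 2 with DESeq2 (5.1%), 3 with the early-late term (7.18%) and 5 with the replicate term (9.72%), all lower, and 0 within replicates 1 and 2 (0%), 1 to 3 (0.0203%) and 3 to 6 (4.56%). Ctu1 iKO with torin 1 gave 2, and 0 (0.834%), 0 (1.17%) and 1 (9.39%, lower) in these 3 subsets. In transcripts, torin 1 in control gave 0, and 2 with DESeq2 (17.1%), 5 with the early-late term (24.2%, 1 higher), 1 with library totals (12.5%), 2 with only the groups compared (13.1%), 10 with the replicate term (32.3%, 2 higher) and 4 within replicates 1 and 2 (12.6%, 1 higher), the others lower. Torin 1 in Ctu1 iKO gave 1 (Pold3, higher), and 6 (23.9%, 3 higher), 10 (33.6%, 5 higher), 3 (20.2%, Orc2, Fen1 and Rrm2, all lower), 0 (8.25%), 18 (41%, 9 higher) and 7 (21.4%, 3 higher) in that order, and 0 with every replicate (0%). Ctu1 iKO with DMSO gave 1, and 3 with the early-late term (20.4%), 5 with every replicate (15.8%) and 9 with the replicate term (29.2%), all lower. Ctu1 iKO with torin 1 gave 1 (lower), and 2 with DESeq2 (17.6%), 6 with the early-late term (28%, 1 higher), 2 with library totals (11.3%), 0 with every replicate (0%), 13 with the replicate term (35.9%, 2 higher) and 4 within replicates 1 and 2 (16.4%). Efficiency with torin 1 in control went from 0 to 1 with the replicate term (2%), and was 0 with a term for each culture (1.31%). With libraries summed over sets, chosen after seeing the data, 0 members were called in every comparison. Fewer libraries entered the subset and summed fits, and the cause of the other shifts was not tested.

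Leaving out 1 library at a time gave 1 to 3, 1 to 2, 0 to 1 and 2 to 2 members in the 4 footprint comparisons in the order above, 0 to 2, 0 to 7, 1 to 1 and 1 to 3 in transcripts, and 0 in both interactions and in efficiency. Of all genes these fits called 5.5 to 8.32%, 10 to 12.8%, 1.8 to 4.08% and 6.93 to 8.9% in footprints and 6.19 to 14%, 12.4 to 20.9%, 1.62 to 8.48% and 3.09 to 15.5% in transcripts. In footprints, torin 1 in control rose to 2 without control torin 1 replicate 3 or 6 or Ctu1 iKO torin 1 replicate 4 or 5, and to 3 without control torin 1 replicate 4 (6.4% of all genes) or Ctu1 iKO torin 1 replicate 1 (8.32%). Torin 1 in Ctu1 iKO rose to 2 without control DMSO replicate 3 or 5. In transcripts, torin 1 in control rose to 1 and 2 without Ctu1 iKO torin 1 replicates 1 and 3. Torin 1 in Ctu1 iKO became 0 without Ctu1 iKO DMSO replicate 1, 2 without control DMSO replicate 3, control torin 1 replicate 1 or Ctu1 iKO torin 1 replicate 1 or 2, and 7 without Ctu1 iKO torin 1 replicate 3 (20.9%). Ctu1 iKO with torin 1 became 2 without control torin 1 replicate 1 and 3 without Ctu1 iKO torin 1 replicate 3 (15.5%).

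In footprints that involve Ctu1 iKO with DMSO, replicate numbers did not pair all 5 pairs of libraries by the correlations, which ran from 0.0475 to 0.372 with torin 1 in Ctu1 iKO (5 of 10 libraries best with their own number) and from -0.0374 to 0.415 in Ctu1 iKO with DMSO (6 of 10). Within replicates 1 to 3 they did, at 0.158 to 0.455 and 0.229 to 0.445, with 6 of 6 libraries in both. With the replicate term, the first gave Rrm2 (-0.56), Cdc6 (-0.56), Orc2 (-0.38), Cdt1 (0.31) and Pcna (0.15), where 21.3% of all genes were called, and the second Chaf1a (-0.48), Pold3 (-0.48), Rrm2 (-0.37), Mcm10 (-0.33) and Orc6 (-0.23), where 9.72% were. The replicate term took away no called member. A stricter filter of at least 10 counts in every library left 43 members in footprints, without Orc1, which depth limits most.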

Other observations

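Across the 44 members, the share of AAA codons and the footprint log2FC of Ctu1 iKO against control had a Pearson r of -0.06 and a Spearman rho of 0.00 with DMSO, and -0.26 and -0.12 with torin 1. Without Pold3, the member richest in AAA, the torin 1 values were -0.05 and -0.06. Over 9587 genes the torin 1 values were -0.05 and -0.05. These are descriptions across genes, which share libraries and base composition and are not independent replicates.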
